A study of Mus musculus with 27 samples.

Results

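Cxcr4, Ddit4, Tsc22d3, Rgs2, Bcl6, Ccng2, Pik3ip1, Sesn1, Txnip and Foxo3 were grouped as cytokine-withdrawal genes of the FOXO type. Several of them, such as Bcl6, Ccng2, Sesn1 and Txnip, are known targets of the FOXO forkhead factors, and Foxo3 encodes such a factor. These 10 genes were taken by symbol from the 24000 genes counted, and 9 of them were among the 12073 genes with enough reads to test. Bcl6 had too few. Cytokine receptors activate PI3K and its kinase AKT, and AKT phosphorylates FOXO factors and holds them in the cytoplasm. When the cytokine is gone, AKT activity drops, FOXO factors enter the nucleus, and genes for growth arrest, quiescence, low nutrient signalling and cell death are transcribed. The same IL3 receptor also activates STAT5A and STAT5B, transcription factors that induce a separate set of feedback and survival genes.

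PolyA RNA was sequenced from Ba/F3, a mouse pro-B cell line that needs IL3 to grow, in 27 libraries of 7 groups. In 6 groups the cells went without IL3 for 6 h, after which IL3 was returned at 10 ng/mL for 30 min. They carried a lentiviral short hairpin against STAT5A, STAT5B, LSD1 or HDAC3 (n = 3 libraries each), a no-target hairpin (n = 5), or no hairpin (wild type, n = 5). Cells of the last group were wild type and were deprived for 6 h without IL3 being returned (n = 5). Hairpin-carrying cells were kept under puromycin selection, which wild-type cells did not go through, and LSD1 (a histone demethylase, gene Kdm1a) and HDAC3 (a histone deacetylase) belong to co-repressor complexes. All libraries come from 1 cell line, and no group was kept in IL3 throughout, so the effect of returning IL3 was measured and that of withdrawing it was not. Per the labels, replicates within a group are biological, with no culture or day named. The p-values weigh differences against the spread between these libraries, which 1 fit estimated over all 7 groups together.

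Depth ranged from 5.48 to 33.8 M reads counted in genes per library, and levels are given as counts per M such reads (CPM) after scaling. The 5 libraries HDAC3 replicates 1 and 2, LSD1 replicate 1 and no-target replicates 1 and 3 stood apart, with 14.0 to 24.9% of reads outside genes against 8.70 to 12.0% in the other 22. The targeted genes were lower in their own knockdown (Stat5a to 35.9% of the no-target mean, Stat5b to 28.5%, Kdm1a to 53.0% and Hdac3 to 44.3%). Of 14 genes known from pro-B cells, 3 passed the filter (Cd79a, Cd79b and Ptprc), while Pax5, Ebf1, Rag1 and Dntt had at most 4 reads in any library. In stimulated wild type the 14 genes summed to 265 to 341 CPM, of which Ptprc averaged 219 CPM. The 9 genes taken as mast cell and basophil markers summed to 472 to 1010 CPM there, of which Gata2 averaged 590 CPM. Cpa3 and Ms4a2 of that list averaged 3.72 and 5.58 CPM there. Kit, Fcer1a and Tpsb2 had at most 4, 1 and 5 reads in any library. Gata2 had 378 to 1110 CPM over all libraries. Csf2rb, the shared beta chain of the IL3 receptor, had 1770 to 7920 CPM. The 8 genes taken as IL3-induced controls, Cish and Socs1 among them, were all higher in stimulated than in deprived wild type. Over all genes tested, 3% were called higher. The list of controls was chosen with earlier results of these data known, so this count is a description.

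The sequences upstream of the transcription start are given for the 4 genes that fell with IL3 and for Txnip, the only member whose window held the FOXO motif. They were taken from RefSeq promoter windows (build GRCm38.p6), which matched 10 of 10 members with 14 windows, and bases that GENCODE vM21 annotates as exon were left off the end. Capitals mark motif matches.
Cxcr4, chr1:128592300-128592549, minus strand: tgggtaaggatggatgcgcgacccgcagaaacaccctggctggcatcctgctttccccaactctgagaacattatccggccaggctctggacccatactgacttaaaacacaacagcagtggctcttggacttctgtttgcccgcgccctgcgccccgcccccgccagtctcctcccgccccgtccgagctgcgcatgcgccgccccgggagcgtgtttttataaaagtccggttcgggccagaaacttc
Rgs2, chr1:144004162-144004399, minus strand: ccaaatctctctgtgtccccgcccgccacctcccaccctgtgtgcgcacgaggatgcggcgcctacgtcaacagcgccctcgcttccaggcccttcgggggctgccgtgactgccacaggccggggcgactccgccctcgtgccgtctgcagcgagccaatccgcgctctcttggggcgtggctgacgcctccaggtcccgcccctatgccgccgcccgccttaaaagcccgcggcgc
Ddit4, chr10:59951835-59952020, minus strand: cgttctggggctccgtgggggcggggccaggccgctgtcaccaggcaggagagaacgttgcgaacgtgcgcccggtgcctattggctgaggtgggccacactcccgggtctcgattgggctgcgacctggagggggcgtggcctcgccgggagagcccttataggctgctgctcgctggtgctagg
Tsc22d3 at one of its 3 annotated starts, chrX:140548572-140548821, minus strand: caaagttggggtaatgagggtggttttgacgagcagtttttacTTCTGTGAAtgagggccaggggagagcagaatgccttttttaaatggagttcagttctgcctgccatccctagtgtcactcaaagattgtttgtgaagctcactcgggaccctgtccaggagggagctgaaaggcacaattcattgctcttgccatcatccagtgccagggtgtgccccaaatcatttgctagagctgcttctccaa
Txnip, chr3:96557707-96557956, plus strand: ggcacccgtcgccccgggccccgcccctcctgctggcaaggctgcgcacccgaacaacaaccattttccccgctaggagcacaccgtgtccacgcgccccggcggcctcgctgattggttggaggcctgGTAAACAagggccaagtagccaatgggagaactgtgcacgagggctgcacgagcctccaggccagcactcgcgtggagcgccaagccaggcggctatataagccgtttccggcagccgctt

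Both strands of the 250 bases before each start were searched for the FOXO motif GTAAACA or ATAAACA and for the STAT motif TTCNNNGAA. Among all 32851 windows, 7.10% held the FOXO motif and 7.02% the STAT motif. Txnip held GTAAACA 121 bases before its start. The printed Tsc22d3 window held TTCTGTGAA 207 bases before its start, and the bases after that start were not found in a GENCODE transcript of the gene. The other 2 Tsc22d3 windows, whose following bases were found in one, held neither motif. Bcl6 held 1 STAT match in one window and 3 in the other. The windows of Cxcr4, Rgs2 and Ddit4 held neither motif, which says only that these letters are not in these windows. The windows of Ccng2 and Pik3ip1 and a Sesn1 window lay wholly within GENCODE exons of these genes. There the search covered no base upstream of the annotated gene start.

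In wild type, 4 of the 9 tested members were lower after 30 min of IL3 than in deprived cells: Cxcr4, Rgs2, Ddit4 and Tsc22d3, at 26.2 to 35.6% of the deprived mean. None was called higher. Over all genes tested, 0.82% were called lower and 3% higher (edgeR's quasi-likelihood test, Benjamini-Hochberg adjusted p under 0.05). The median log2 fold change was -0.98 over the 9 members and -0.02 over all genes. The members had been chosen with such results known, and the counts are descriptions of them.

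Cxcr4 encodes the receptor for the chemokine CXCL12 and holds haematopoietic cells in the marrow. It lies at chr1:128588199-128592293 on the minus strand (GRCm38). Its level was 283, 142, 153, 79.1 and 208 CPM in the stimulated wild-type libraries, replicates 1 to 5, against 530, 667, 599, 729 and 771 CPM in the deprived ones. The groups do not overlap, and replicate 1 was the highest stimulated and the lowest deprived library. The means were 173 ± 76.6 and 659 ± 97 CPM (SD, n = 5 each), a log2 fold change of -1.93 (SE 0.44, edgeR adjusted p = 0.00991). Per kb of exon Cxcr4 had the highest level of the members, with 95.7 CPM per kb in stimulated and 364 CPM per kb in deprived wild type.

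Rgs2 encodes a protein that ends signalling of G protein-coupled receptors by speeding GTP hydrolysis. It had 34.8, 20.7, 17.9, 15.8 and 16.6 CPM in stimulated wild type, against 57.5, 75.1, 69.1, 77.6 and 65.4 CPM in deprived wild type. Replicate 1 was the highest stimulated and the lowest deprived library, and the groups still did not overlap. The fitted log2 fold change of Rgs2 was -1.70 (SE 0.30, edgeR adjusted p = 0.000861).

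Ddit4 encodes REDD1, an inhibitor of mTORC1 that stress induces. Its level was 46.1, 26.5, 16.8, 21.4 and 20.6 CPM in stimulated wild type, against 88.1, 111, 58.4, 85.7 and 85.2 CPM in deprived wild type. The groups do not overlap, and replicate 1 was the highest of the stimulated libraries. For Ddit4 the log2 fold change was -1.70 (SE 0.34, edgeR adjusted p = 0.00315).

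Tsc22d3 encodes GILZ, a leucine zipper protein first known as a glucocorticoid-induced gene. It had 12.4, 7.37, 6.71, 6.60 and 6.81 CPM in stimulated wild type, against 21.9, 23.0, 24.7, 22.8 and 19.7 CPM in deprived wild type. Replicates 2 to 5 of the stimulated libraries lay within 1 CPM of each other and replicate 1 lay above them. Tsc22d3 had a log2 fold change of -1.48 (SE 0.22, edgeR adjusted p = 0.000113). Among 15 genes fixed as glucocorticoid targets, Tsc22d3 being no member of that list, 12 were tested and 1 fell (Nfkbia, 12.1 against 45.2 CPM, log2 fold change -1.88, adjusted p = 0.00468) and 1 rose (Dusp1, 204 against 9.38 CPM, log2 fold change 4.44, adjusted p = 3.25e-08). In a fit with a block for replicate number, described further on, 1 gene of this list was lower and 4 were higher, Zbtb16 (adjusted p = 0.0174), Klf9 (0.0289) and Per1 (0.0369) being added. Over all genes that fit called 8.66% lower and 12.6% higher, and the fit without a block called 0.82% lower and 3% higher. Fkbp5, a chaperone gene of the same list, had 87.5 CPM in stimulated and 97.2 CPM in deprived cells (adjusted p = 0.684).

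**Figure D1:**
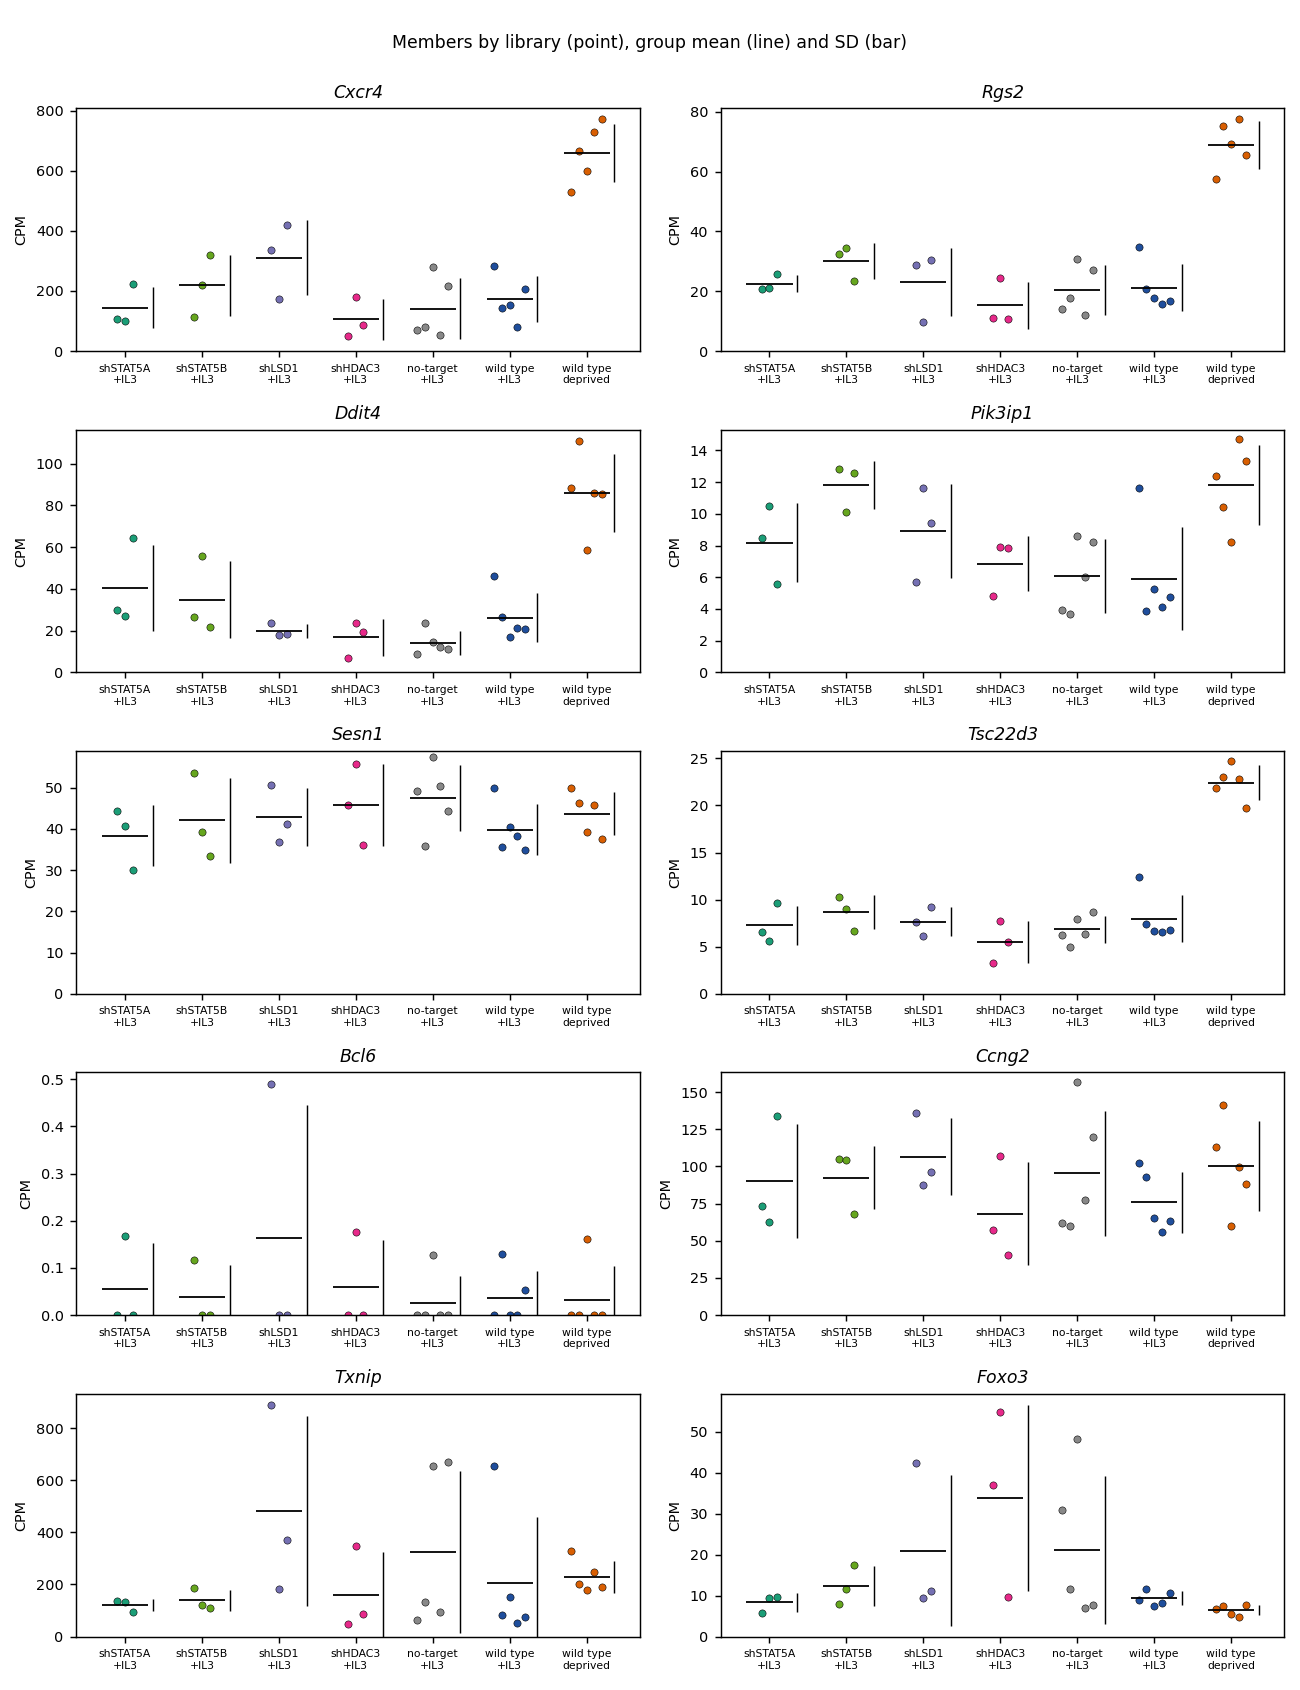
Level of each of the 10 genes in CPM (y axis, linear from 0) in every library (points), with the group mean (horizontal line) and SD (vertical bar), for the 7 groups along the x axis. All 22 stimulated libraries lie below all 5 deprived ones for Cxcr4, Rgs2 and Tsc22d3, while Sesn1 and Ccng2 overlap throughout and Bcl6 is near 0.

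The other 5 tested members were not called in the edgeR fit without a replicate block. Pik3ip1, which encodes a membrane protein that inhibits PI3K, had 11.6, 3.85, 5.28, 4.11 and 4.75 CPM in stimulated wild type, against 12.4, 10.4, 8.22, 14.7 and 13.3 CPM in deprived wild type. The groups overlap through replicate 1 of the stimulated libraries alone. The log2 fold change was -0.98 (SE 0.30, edgeR adjusted p = 0.0669). DESeq2 called Pik3ip1 at the same fold (-0.98, adjusted p = 0.0227), and without that library the edgeR value was -1.37 (adjusted p = 0.00227).

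Txnip, which encodes a thioredoxin-binding arrestin that limits glucose uptake, had 654, 82.7, 152, 53.8 and 76.6 CPM in stimulated wild type, against 329, 201, 179, 247 and 192 CPM in deprived wild type. Replicate 1 of the stimulated libraries exceeded every deprived library and the other 4 lay below all of them. The log2 fold change was -0.17 (SE 0.67, adjusted p = 0.945), and -1.31 without that library (adjusted p = 0.332). Txnip overlaps the predicted gene Gm15441, which was counted at 0.472 to 3.59 CPM.

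Ccng2, the gene of the atypical cyclin G2, had 102, 92.8, 65.0, 55.6 and 63.6 CPM in stimulated wild type, against 113, 141, 59.8, 99.7 and 88.0 CPM in deprived wild type, with overlapping groups (log2 fold change -0.40, SE 0.30, adjusted p = 0.595). Sesn1, the gene of sestrin 1, a sensor protein upstream of mTORC1, had 34.8 to 50 CPM in stimulated and 37.6 to 49.9 CPM in deprived wild type. Its log2 fold change was -0.13, with a 95% interval of -0.46 to 0.20, which leaves out the sizes seen for the 4 genes that fell. Bcl6, a transcriptional repressor gene, had 15 reads over all 27 libraries and at most 3 in one, with 19 libraries at 0. The level that 3 counts would give was 0.0888 to 0.528 CPM depending on the library, so no difference in Bcl6 was detectable at this depth.

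Foxo3 encodes a FOXO factor itself. It had 8.85, 11.5, 7.43, 8.30 and 10.6 CPM in stimulated wild type, against 6.72, 7.49, 5.46, 4.86 and 7.64 CPM in deprived wild type. The ranges overlap by a narrow margin, with every stimulated library above the deprived library of its number. Its log2 fold change was 0.54 (SE 0.49, edgeR adjusted p = 0.68). That SE draws on the spread in all 7 groups, and Foxo3 reached 54.9 CPM in hairpin libraries. The block fit described further on, which used the wild-type libraries alone, gave an SE of 0.10. Of the other FOXO genes, Foxo4 had 94.2 CPM in stimulated and 107 CPM in deprived wild type (log2 fold change -0.19, adjusted p = 0.474). Foxo1 and Foxo6 were at 0 in 25 of 27 libraries each, with at most 2 and 4 reads in a library. Per kb of exon, Foxo4 had 27 CPM per kb in stimulated and 30.7 CPM per kb in deprived wild type, against 1.23 and 0.851 CPM per kb for Foxo3 in the same order of groups.

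Libraries with the same replicate number deviated from their group means together in wild type, so differences within a pair were taken as well. Cxcr4, Rgs2, Ddit4, Tsc22d3 and Pik3ip1 were lower with IL3 in all 5 pairs, as were 23.3% of all genes tested. Pair 1 had the smallest difference for each of these 5 genes. For Cxcr4 the pair differences in log2 CPM were -0.91 in pair 1 and -3.20 to -1.89 in pairs 2 to 5, and for Rgs2 they were -0.72 and -2.29 to -1.85. With the replicate number as a block, 6 of the 9 members were called: 5 lower, Pik3ip1 now among them (log2 fold change -1.03, adjusted p = 0.0243), and Foxo3 higher (0.53, adjusted p = 0.011). In that fit 8.66% of all genes were called lower and 12.6% higher. With pair 1 also left out, an alternative added after the data were seen, 7 members were called, with Txnip lower (-1.24, adjusted p = 0.0197).

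**Figure D2:**
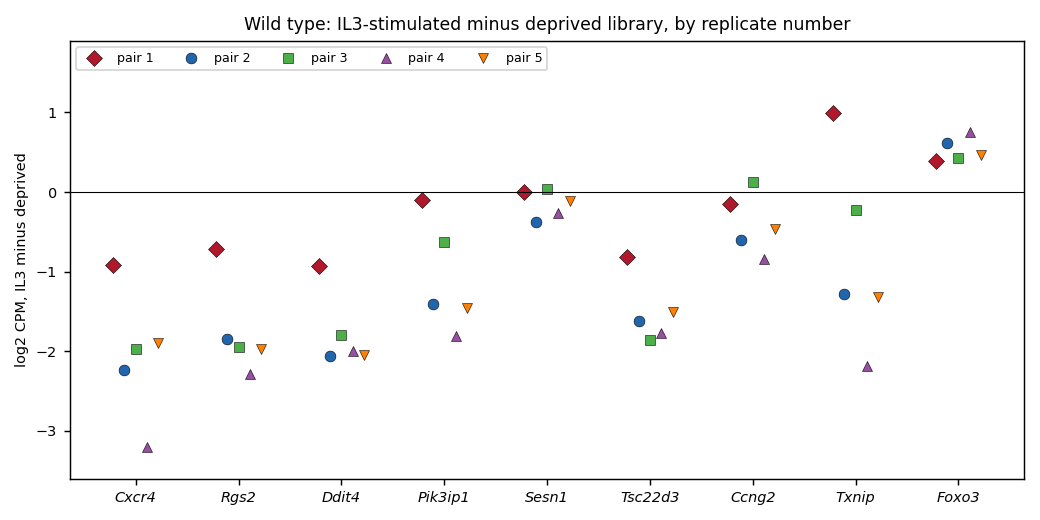
Difference in log2 CPM between the stimulated and the deprived wild-type library of the same replicate number (y axis) for the 9 tested genes (x axis), with 1 symbol per pair. Pair 1 (diamonds) lies closest to 0 for Cxcr4, Rgs2, Ddit4, Tsc22d3 and Pik3ip1, and at 0.99 for Txnip, where pairs 2 to 5 lie between -2.19 and -0.23.

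Stimulated replicate 1 was the highest of the 5 stimulated wild-type libraries for 8 of the 9 members, a place it held for 23.9% of all genes. Of the 5 libraries it was the lowest for 24.1% of all genes. It was also the lowest of them for 4 of the 8 IL3-induced controls: Cish (350 against 480 to 555 CPM), Socs1 (138 against 190 to 211 CPM), Socs3 (112 against 245 to 659 CPM) and, by a small margin, Mcl1 (568 against 576 to 658 CPM). For Egr2 it was the highest, with 244 against 115 to 166 CPM, and for Osm, Myc and Pim1 it lay between the others. The part of this library's state in the values above was not tested beyond leaving it out, after which 5 members were called.

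Of 41 other genes known as FOXO targets, 33 were tested, 1 fell and 3 rose with IL3 in wild type. Over all genes tested, 0.82% were called lower and 3% higher. The median log2 fold change of the list was -0.05, against -0.02 over all genes. Bbc3, which encodes the cell death protein PUMA, fell to 38.3 CPM in stimulated cells, against 74.7 CPM in deprived cells (log2 fold change -0.96, adjusted p = 0.0222). The cell cycle inhibitor gene Cdkn1a rose to 885 CPM in stimulated cells, against 203 CPM in deprived cells (2.12, adjusted p = 1.08e-07). Cited2, a transcriptional co-regulator gene, rose to 803 against 272 CPM (1.56, adjusted p = 2.04e-05), and Trib1, a pseudokinase gene, to 8.20 against 0.887 CPM (3.19, adjusted p = 0.000611). With the replicate block, 7 were lower and 5 higher, in a fit that called 8.66% of all genes lower and 12.6% higher. The damage-response gene Gadd45a was lower in it (29.1 against 49.5 CPM, block log2 fold change -0.80, adjusted p = 0.00286). Bcl2l11, the gene of the death protein BIM, had 37.2 CPM in stimulated and 41.2 CPM in deprived cells and was not called in either fit.

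**Figure D3:**
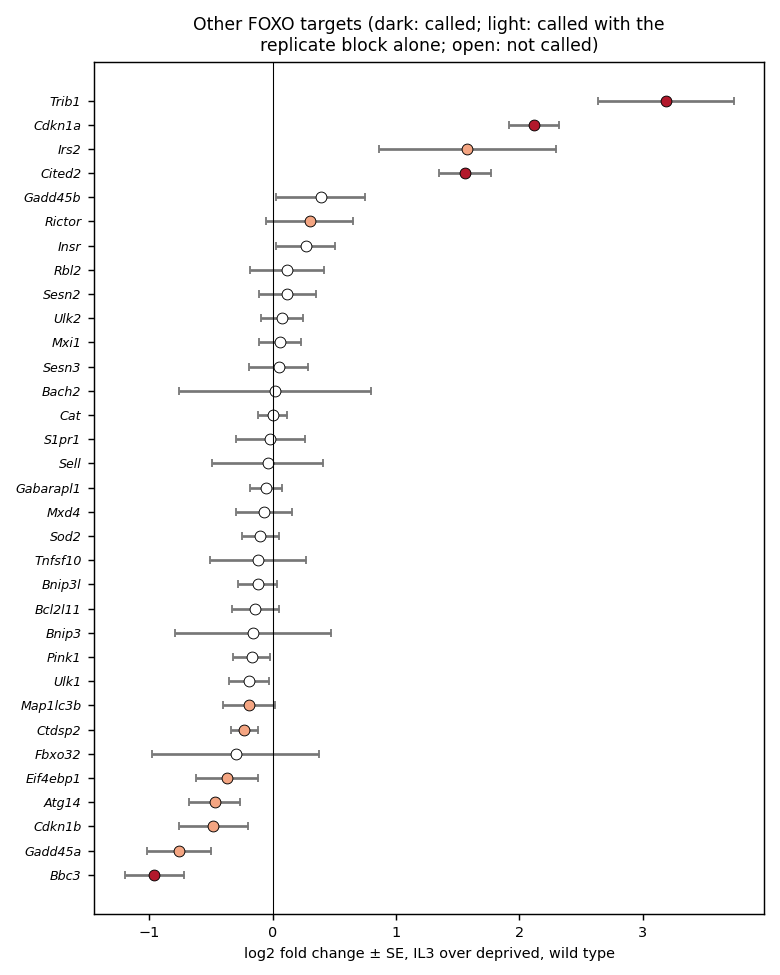
Log2 fold change with SE (x axis, stimulated over deprived wild type) of the 33 tested genes of the list of other FOXO targets, ordered by size down the y axis. Dark points are called, light ones are called with the replicate block alone and open ones are not called; 3 dark points (Trib1, Cdkn1a and Cited2) lie right of 0 and 1 (Bbc3) left of it.

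Of 26 tested genes of the PI3K, AKT and mTOR chain, none was called by edgeR without the block, and with it 4 were higher and 3 lower. In that fit 12.6% of all genes were higher and 8.66% lower, so such counts among 26 genes are near the background. The PI3K catalytic genes Pik3cb (120 against 92.1 CPM, block adjusted p = 0.00532) and Pik3cg (102 against 69.5 CPM, block adjusted p = 0.0122) and the mTORC1 activator gene Rheb (105 against 72.7 CPM, block adjusted p = 0.0197) were higher in stimulated cells in the block fit. The mTORC1 scaffold gene Rptor was lower (46.7 against 55.8 CPM, block adjusted p = 0.0252). Among 25 paralogues of the members, 15 were tested. Arrdc2, an arrestin gene related to Txnip, fell (19.4 against 35.0 CPM, log2 fold change -0.85, adjusted p = 0.0297). Tsc22d2, a relative of Tsc22d3, rose (47.2 against 26.1 CPM, log2 fold change 0.85, adjusted p = 0.0347), opposite to Tsc22d3 itself. Over all genes, the fit without the block called 0.82% lower and 3% higher. With the block, 4 paralogues were lower and 1 higher.

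Set against all 22 stimulated libraries, hairpin-carrying ones included, the 5 deprived libraries were higher without exception for Cxcr4 (highest stimulated library 420, lowest deprived 530 CPM), Rgs2 (34.8 and 57.5 CPM) and Tsc22d3 (12.4 and 19.7 CPM). Over all genes, 1.03% showed this separation in the same direction, and 4.51% were lower in stimulated than in deprived wild type without overlap, as were 4 members. For Ddit4 a single stimulated library reached the deprived range, replicate 3 of the STAT5A knockdown with 64.4 CPM. The stimulated groups overlapped their neighbours in the order of means for these 4 genes.

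The edgeR fit called no member in any of the 5 comparisons that use hairpin-carrying cells, while DESeq2 called 1, Ddit4 in the STAT5A knockdown. Over all genes, the share called was 0.0663% for the STAT5A, 0.34% for the STAT5B, 0.166% for the LSD1 and 0.0248% for the HDAC3 knockdown against the no-target hairpin, and 0% for no-target against stimulated wild-type cells. In that last comparison 2042 genes had an unadjusted p under 0.05 and DESeq2 called 122. The knockdowns share their 5 no-target libraries, so their values are not independent. Members with an unadjusted p under 0.05 numbered 2 in the STAT5A, 2 in the STAT5B, 1 in the LSD1 and 0 in the HDAC3 knockdown, and 2 with the no-target hairpin. Among all 12073 genes tested, 1016, 1925, 810 and 687 had such a p in the 4 knockdowns, in the same order.

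Ddit4 had the largest values among these. It had 29.9, 27.2 and 64.4 CPM in the STAT5A knockdown and 26.6, 55.8 and 21.7 CPM in the STAT5B knockdown, against 8.78, 23.8, 14.4, 12.4 and 11.1 CPM with the no-target hairpin. All STAT5A knockdown libraries exceed all no-target libraries, and 1 STAT5B knockdown library falls below the highest of them. On the log2 scale the fold change was 1.53 in the STAT5A knockdown (SE 0.38, unadjusted p = 0.000532, edgeR adjusted p = 0.219) and 1.31 in the STAT5B knockdown (SE 0.38, unadjusted p = 0.00231, adjusted p = 0.144). The DESeq2 value in the STAT5A knockdown was 1.52 (adjusted p = 0.0467). Without STAT5A knockdown replicate 3 the edgeR value was 1.02 (adjusted p = 0.945), and without STAT5B knockdown replicate 2 it was 0.79 (adjusted p = 0.435). The monocyte gene Cd14 was at 42.6 CPM in STAT5A knockdown replicate 3, the library with the highest Ddit4 level of its group. It was at 0.237 and 0.419 CPM in replicates 1 and 2. The 8 myeloid markers counted summed to 190 to 765 CPM in the STAT5A and 270 to 796 CPM in the STAT5B knockdown. The sums were 108 to 261 CPM with the no-target hairpin and 82.8 to 123 CPM in the HDAC3 knockdown. They were 364 to 585 CPM in the LSD1 knockdown, where Ddit4 had 23.8, 17.8 and 18.2 CPM. Stimulated and deprived wild type had sums of 149 to 335 and 159 to 413 CPM. The part of Cd14 and these markers in the Ddit4 values was not tested. Fewer cells of a type and less RNA per cell cannot be told apart in such bulk libraries.

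With the no-target hairpin Ddit4 averaged 14.1 ± 5.80 CPM, against 26.3 ± 11.6 CPM in stimulated wild type (SD, n = 5 each), a log2 fold change of -0.91 that did not pass the test (adjusted p = 0.23). Both knockdown means, 40.5 ± 20.7 CPM for STAT5A and 34.7 ± 18.4 CPM for STAT5B (SD, n = 3 each), lie above the stimulated wild-type mean as well, with overlapping ranges. Deprived wild type, at 85.6 ± 18.6 CPM, remained the highest group.

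Pik3ip1 had 12.8, 10.1 and 12.6 CPM in the STAT5B knockdown, against 3.92, 3.67, 8.61, 5.99 and 8.21 CPM with the no-target hairpin. These groups do not overlap, and the knockdown mean of 11.8 CPM was that of deprived wild type too. The log2 fold change was 0.95 (SE 0.34, unadjusted p = 0.00986, adjusted p = 0.23). Ddit4 in the STAT5A and Pik3ip1 in the STAT5B knockdown were the only members without overlap against the no-target libraries. Groups without overlap made up 4.8% of all genes for the STAT5A, 5.72% for the STAT5B, 2.8% for the LSD1 and 2.45% for the HDAC3 knockdown, and 5.35% for the no-target hairpin against wild type.

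Cxcr4 had 338, 174 and 420 CPM in the LSD1 knockdown, against 71.6, 81.7, 280, 52.9 and 217 CPM with the no-target hairpin. The ranges overlap, and 2 of the 3 knockdown libraries exceed every no-target library. The log2 fold change was 1.15 (SE 0.48, unadjusted p = 0.0265, adjusted p = 0.615). In the HDAC3 knockdown Cxcr4 had 50.5, 180 and 85.2 CPM, with a log2 fold change of -0.42 (95% interval -1.46 to 0.62). In the STAT5A knockdown it had 108, 101 and 223 CPM, with a log2 fold change of 0.04 (95% interval -0.98 to 1.06), and in the STAT5B knockdown 114, 221 and 320 CPM (0.64, interval -0.37 to 1.64). These intervals are wide enough to hold changes of the size of 1 log2 unit in several cases, so equal levels were not shown.

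Rgs2 and Tsc22d3 were closer together across the stimulated groups. Rgs2 averaged 22.6 CPM in the STAT5A, 30.1 in the STAT5B, 23.0 in the LSD1 and 15.3 in the HDAC3 knockdown, and 20.4 CPM with the no-target hairpin. Tsc22d3 averaged 7.27, 8.66, 7.66 and 5.50 CPM in the same knockdowns and 6.84 CPM with the no-target hairpin. The largest log2 fold changes against the no-target hairpin were 0.57 for Rgs2 and 0.34 for Tsc22d3, both in the STAT5B knockdown, with 95% intervals of -0.13 to 1.27 and -0.19 to 0.88. Sesn1 stayed within 30.1 to 57.5 CPM in all 27 libraries. Ccng2 averaged 68.4 to 106 CPM across the knockdowns and 95.4 CPM in no-target cells.

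**Figure D4:**
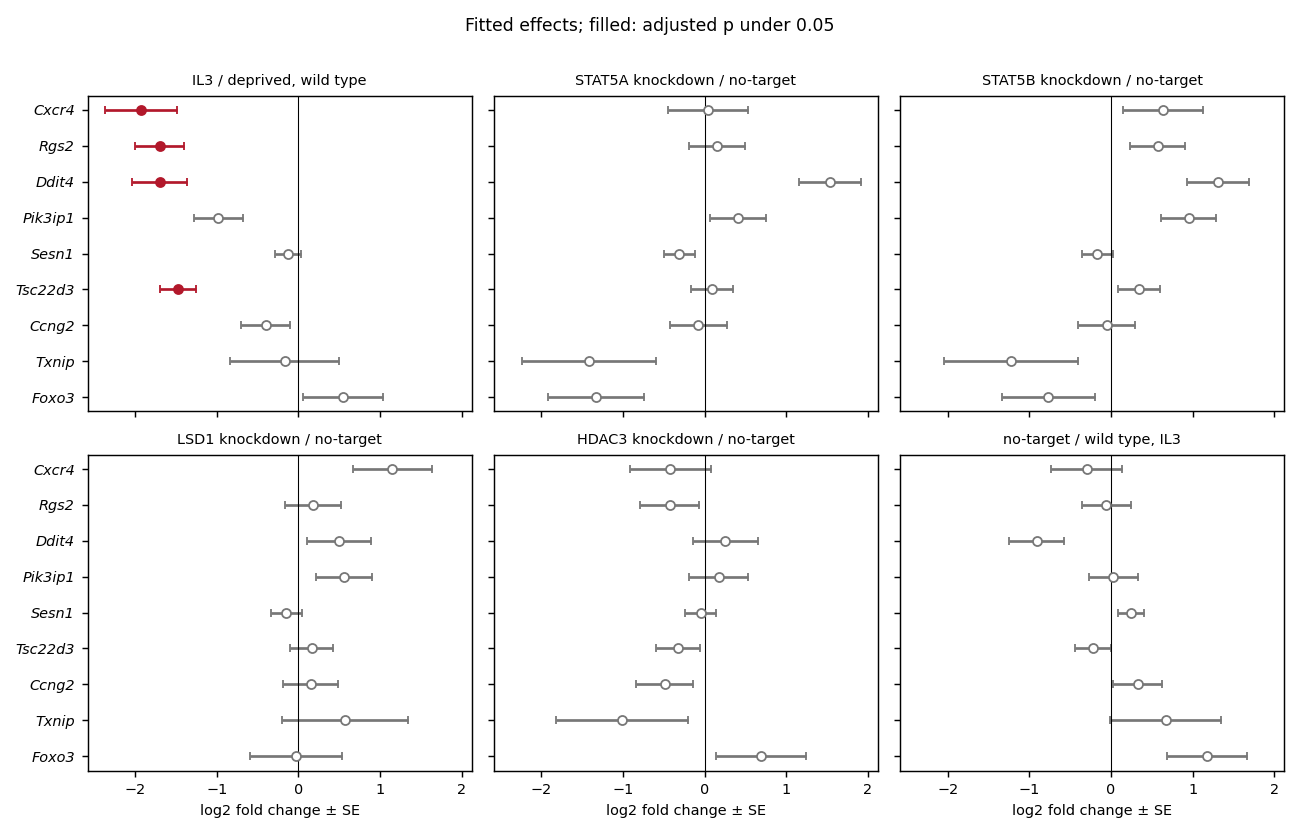
Log2 fold change with SE (x axis) of the 9 tested genes (y axis) in the 6 comparisons, each panel titled with the group on top and below the fold. Filled points have an adjusted p under 0.05 and occur in the wild-type IL3 panel alone, for Cxcr4, Rgs2, Ddit4 and Tsc22d3; Ddit4 stands at 1.53 and 1.31 in the STAT5A and STAT5B panels without passing.

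Differences between knockdowns were tested for each of the 6 pairs and 9 members. Of the 54 tests none was called, and the smallest adjusted p was 0.0768, for Foxo3 in the STAT5A against the HDAC3 knockdown (8.33 against 33.9 CPM, log2 fold change -2.01). Over all 12073 genes tested, 239 were called in that pair. The fewest were 3, for STAT5A against STAT5B, and the most 979, for STAT5B against HDAC3. HDAC3 replicates 1 and 2, with Foxo3 at 37.0 and 54.9 CPM, are among the 5 libraries with many reads outside genes. Replicate 3 had 9.75 CPM.

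Foxo3 and Txnip varied widely within groups. Foxo3 had 37.0, 54.9 and 9.75 CPM in the HDAC3 knockdown and 42.3, 9.50 and 11.1 CPM in the LSD1 knockdown, against 30.9, 11.6, 48.3, 7.07 and 7.77 CPM with the no-target hairpin. The 5 libraries with many reads outside genes hold the 5 highest values, 30.9 to 54.9 CPM, and the other 22 lie between 4.86 and 17.5 CPM. Without these 5 libraries the log2 fold change of Foxo3 was -0.07 in the STAT5A knockdown, where it had been -1.33 (unadjusted p = 0.0328), and -0.10 for the no-target hairpin against wild type, where it had been 1.17 (unadjusted p = 0.0253).

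Txnip had 888, 184 and 371 CPM in the LSD1 knockdown, against 65.2, 134, 655, 94.1 and 671 CPM with the no-target hairpin, and 47.2, 348 and 87.4 CPM in the HDAC3 knockdown. High libraries occur on both sides of the split by reads outside genes. The STAT5A and STAT5B knockdowns lacked such high libraries, with 94.6 to 136 and 111 to 185 CPM. Their log2 fold changes were -1.42 (SE 0.82, adjusted p = 0.58) and -1.22 (SE 0.82, adjusted p = 0.432).

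**Figure D5:**
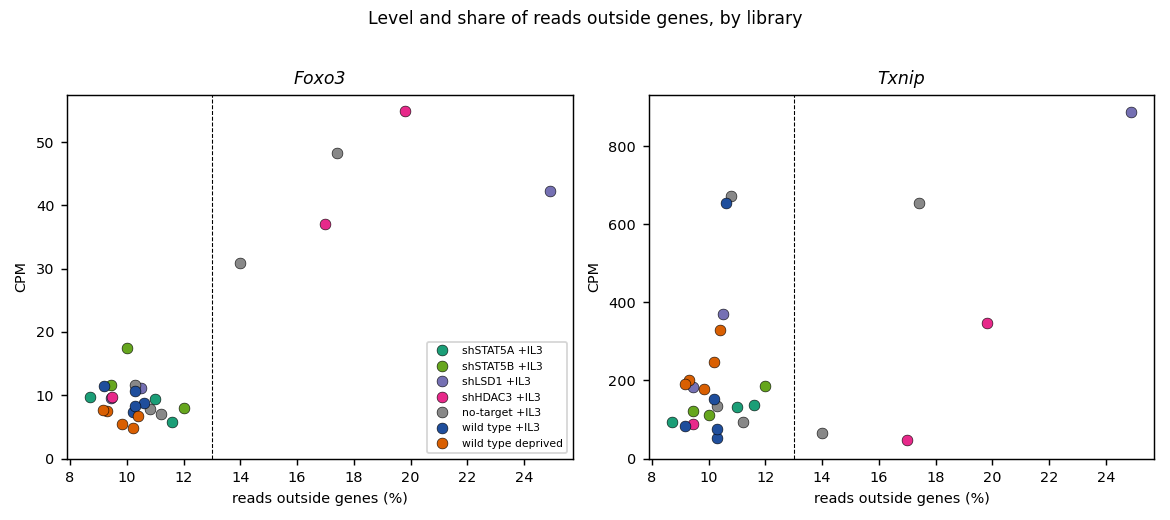
Foxo3 and Txnip levels in CPM (y axes, from 0) against the share of reads outside genes in percent (x axis) for the 27 libraries, coloured by group. The dashed line at 13% divides the 5 libraries with many such reads from the other 22: for Foxo3 all 5 lie above the rest, while for Txnip high libraries occur on both sides.

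Of the other FOXO targets, Gadd45a passed the test in both STAT5 knockdowns, averaging 70.4 CPM in the STAT5A knockdown (log2 fold change 1.70, adjusted p = 0.0214) and 55.0 CPM in the STAT5B knockdown (1.34, adjusted p = 0.0478), against a no-target mean of 21.6 CPM. From low to high, its STAT5A knockdown libraries had 41.9, 45 and 124 CPM and those of STAT5B 48.7, 49.8 and 66.6 CPM. The no-target libraries had 12.7 to 26.6 CPM. In the edgeR fit with the replicate block the adjusted p of Gadd45a was 0.543 and 0.669. Leaving out single libraries was not done for this gene. Both knockdowns share the same controls. Of the 6 tested myeloid markers, only Cd14 was called in the STAT5A knockdown (edgeR adjusted p = 0.0459). Its groups overlap, and its high level there was that of replicate 3 alone. In the STAT5B knockdown only Lyz2 was called (13 against 5.59 CPM, adjusted p = 0.0454). The part of these 2 genes and of the myeloid sums given above in the Gadd45a values was not tested. The mast cell gene Cpa3 was called in the LSD1 knockdown (138 against 5.01 CPM, log2 fold change 4.77, adjusted p = 0.0279), with 3.99, 18.6 and 390 CPM in the 3 knockdown libraries from low to high. Rps6kb1, the S6 kinase gene downstream of mTORC1, was lower in the STAT5B knockdown (40.9 against 70.6 CPM, -0.79, adjusted p = 0.0339).

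Across the 27 libraries, the genes most like each member in log2 CPM were found by Pearson's r, a description in which points share groups and libraries. Rgs2 and Tsc22d3 were among each other's 3 closest genes (r = 0.93), and Zfp90 was close to both (0.91 and 0.93). S1pr2, a sphingosine phosphate receptor gene, was the closest to Cxcr4 (0.93), followed by Tor4a (0.91) and S1pr4 (0.88). Ddit4 was closest to Snx32 (0.89). Pik3ip1 was closest to Tor3a (0.84), Sesn1 to Ifit2 (0.87), Ccng2 to Zfp260 (0.80) and Txnip to Acp2 (0.78). The closest genes to Foxo3 were Ago3, Ago2 and Nbeal1 (0.96 each), over libraries that include the 5 that stand apart.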

How the data were processed

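PolyA RNA of the mouse cell line Ba/F3 was measured in 27 libraries, assigned to 7 groups from their labels. Each deposited file held one library's raw counts per gene; its 5 summary lines entered neither library sizes nor tests. The submitters' processing notes list the mm10 build, DESeq2 1.2, HTSeq 0.5.4p5, TopHat2 2.0.10 and Trimmomatic 0.30. The counting mode and annotation are not given in the sources used here, nor is the use of strand. Positions, exon lengths and overlaps come from GENCODE vM21 by symbol.

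All libraries entered 1 edgeR quasi-likelihood fit (R 4.3.3, edgeR 4.0.16, robust, TMM scaling, filterByExpr) with 1 mean for each group, without covariates, and p-values were adjusted over 12073 genes (Benjamini-Hochberg, called under 0.05). Log2 CPM used a prior count of 2. Intervals come from the fitted model and include the spread between these libraries. The level that 3 counts would give reflects counting alone, and reads without molecular identifiers are not independent molecules. The pipeline was tested on simulated counts. To see whether libraries with the same replicate number belong together, their deviations from the group means were correlated: in wild type all 5 pairs correlated (r 0.375 to 0.716), and with 3 or 5 pairs in the other comparisons at most 2 did. Alternatives were a threshold of 0.01, a replicate block, a fit restricted to the compared groups, DESeq2 1.42.0, RLE scaling, no filter, leaving out the 5 libraries with many reads outside genes, and leaving out each library in turn.

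The members and the 12 gene lists were chosen with earlier results of these data known. The text names all 10 members, up to 5 called genes of each list in the wild-type comparison, list genes called in a knockdown (chosen after their values were seen, as were Bcl2l11, Fkbp5, Cd14 and the control genes given for replicate 1), and the genes most like each member.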

Additional observations from a re-analysis of the deposited data

Results flagged for a closer look

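Among 27 checks of the 9 tested genes in the 3 groups of 5 libraries, 4 found a library far from the others, all in stimulated wild-type replicate 1, where chance alone gives about 1 in 20. Its gap to the next library made up more of the group's range than Dixon's limit of 0.71 for Rgs2 (34.8 CPM, ratio 0.745), Pik3ip1 (11.6 CPM, 0.814), Tsc22d3 (12.4 CPM, 0.867) and Txnip (654 CPM, 0.836). These genes come from 1 library and are not 4 separate observations. That library was also the deepest, with 33.8 M reads, and its deprived partner had 31.2 M.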

How the results depend on the processing

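In wild type the falls of Cxcr4, Rgs2, Ddit4 and Tsc22d3 passed in 18 of 18 alternatives, with log2 fold changes of -2.30 to -1.75 for Cxcr4 (adjusted p up to 0.0405), -2 to -1.61, -1.99 to -1.57 and -1.70 to -1.43. The number of members called was 4, and 4 to 5 with a library left out, 5 with DESeq2, 6 with the replicate block and 7 with the block and pair 1 left out; Pik3ip1 passed in 5 of 18 alternatives. DESeq2 called 1 member in the STAT5A knockdown, Ddit4; no other alternative called a member in a comparison with hairpin-carrying cells. Over all genes 461 were called in wild type, 252 at a threshold of 0.01, 302 without stimulated replicate 4, 698 with DESeq2, 874 without the 5 libraries that stand apart by reads outside genes, 1172 in a fit of 2 groups and 2569 with the replicate block. Calls in the knockdowns ranged from 0 to 32 for STAT5A, 0 to 213 for STAT5B, 0 to 64 for LSD1 and 0 to 10 for HDAC3, and from 0 to 122 for the no-target hairpin.

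Directions turned only for values that did not pass. With the replicate block Ccng2 was 0.02 in the STAT5A and 0.13 in the STAT5B knockdown, where equal numbers do not pair libraries. The block gave 0 calls over all genes in each knockdown. Without the 5 libraries Ccng2 was 0.07 and 0.10 in these, Foxo3 was 0.49 in the STAT5B and 0.24 in the LSD1 knockdown and -0.10 with the no-target hairpin, and Txnip was -0.12 in the LSD1 knockdown. Without a filter Pik3ip1 was -0.01 with the no-target hairpin. Leaving out single libraries turned Txnip in wild type (-1.31 to 0.08), and in the STAT5A knockdown Cxcr4 (-0.42 to 0.44), Tsc22d3 (-0.17 to 0.24) and Ccng2 (-0.48 to 0.17). It turned Ccng2 in the STAT5B knockdown (-0.18 to 0.20). In the LSD1 knockdown it turned Ccng2 (-0.07 to 0.42), Foxo3 (-1.04 to 0.56), Rgs2 (-0.09 to 0.54) and Txnip (-0.24 to 1.02). In the HDAC3 knockdown it turned Cxcr4 (-1.05 to 0.01), Ddit4 (-0.07 to 0.62) and Sesn1 (-0.21 to 0.11), and with the no-target hairpin Pik3ip1 (-0.11 to 0.44) and Rgs2 (-0.25 to 0.20). The cause was not tested. Groups of 3 libraries and depths down to 5.48 M limit what the knockdown comparisons can show.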

Other observations

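Within each hairpin group, a single library also stood at an end for most members. In deprived wild type none did, with at most 2 members highest and at most 4 lowest in a library. The library with the largest such count is given for each hairpin group, so the counts are descriptions. Replicate 2 of the HDAC3 knockdown, one of the 5 libraries with many reads outside genes, was the highest of its group for 9 of 9 tested members, against 30.8% of all genes. Replicate 2 of the LSD1 knockdown was the lowest of its group for 8 of 9, against 30.3% of all genes. Replicate 3 of the STAT5A knockdown was the highest for 6 of 9, against 39.9% of all genes, and the lowest for the other 3 (Pik3ip1, Sesn1 and Txnip). Replicate 3 of the STAT5B knockdown was the lowest for 6 of 9, against 41.2% of all genes. Replicate 3 with the no-target hairpin, also among the 5 libraries with many reads outside genes, was the highest for 6 of 9, against 30.3% of all genes. It was the lowest of its group for 31.8% of all genes. Of the 8 IL3-induced controls, that library was the lowest of its group for Cish (338 CPM), Socs1 (99.8 CPM), Socs3 (76.0 CPM) and Mcl1 (589 CPM), next to the highest for Pim1 (601 CPM) and Egr2 (187 CPM), and in the middle for Osm and Myc.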
